A study of Mus musculus with 12 samples.

Results

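Fc receptors bind the constant part of antibodies and link antibody on a target to the cell that carries the receptor. Their transcripts were followed in CD45+ immune cells of MC38 tumors, as unique molecular identifier (UMI) counts of single cells, for 8 genes of the 31053 in the matrix: Fcgr1, Fcgr3, Fcgr4, Fcgr2b, Fcer1g, Fcgrt, Fcmr and Fcer2a. The genes were chosen by name, and all 8 were found in the gene list of the matrix. MC38 is a mouse colon adenocarcinoma line, and it was implanted subcutaneously on day 0 into C57BL/6 mice, which the study's methods describe as female. The 12 samples form 4 groups of 3, namely vehicle for 7 days, EZH2i for 7 days, vehicle for 16 days and EZH2i for 16 days. EZH2i was PF-06821497 at 100 mg/kg, given subcutaneously each day; it inhibits EZH2, the enzyme that methylates histone H3 at lysine 27. All groups carried the tumor and were taken on day 17. Each barcode ends in a number, 1 to 12, for its library, and no sample label names the mouse or group that a number stands for. Groups were not inferred from library order or cell numbers, and EZH2i and vehicle were therefore not compared. Each library is given as a sample of no known group, without a test between groups.

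In mice, Fcgr1, Fcgr3 and Fcgr4 encode the activating IgG receptors, with different affinities for the IgG subclasses. They have no signalling motif of their own and depend on the common gamma chain, the product of Fcer1g, whose activation motif recruits the kinase SYK. Fcgr2b encodes the inhibitory IgG receptor, which carries an inhibitory motif and recruits the phosphatase SHIP1, the product of Inpp5d. Fcgrt encodes the heavy chain of the neonatal Fc receptor, which pairs with beta-2 microglobulin and returns IgG and albumin from endosomes to the cell surface. Fcmr encodes the IgM receptor and Fcer2a the low-affinity IgE receptor CD23, both known from B cells. Macrophages, monocytes and neutrophils use the activating receptors to take up or kill antibody-coated cells.

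The matrix held 140639 barcodes, and 128912 cells passed the limits on genes and mitochondrial UMIs. Cells were placed in classes by UMIs of lineage genes, none of them an Fc receptor, and are called X-like. The macrophage-like class, gated on C1qa, C1qb and C1qc, held 90756 cells (70.4%), with a median of 5232 UMIs per cell. There were 5622 T-like, 4836 monocyte-like, 2557 neutrophil-like, 1684 dendritic-like, 299 B-like and 246 NK-like cells, and 22688 cells (17.6%) passed no gate. Levels are UMIs summed over the cells of a class in a library, per 1000000 UMIs of those cells (CPM), for libraries with 20 cells or more of the class. This gave 12 libraries for 5 classes, 4 for NK-like and 3 for B-like cells. The 3' assay counts transcript ends, so CPM was not divided by transcript length.

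Libraries differed widely in depth, from 4256 to 38110 barcodes and from 2291 to 15081 median UMIs per kept cell; library 6 was the shallowest and largest. Library 4 stood apart in make-up, with 62.0% of its macrophage-like cells in an Arg1 gate, against a median of 34.7% over the 12 libraries, and only 32 T-like cells. Transcripts of 4 Y-linked genes were present in libraries 1 to 6, at 11149 UMIs or more, and absent but for 1 UMI from libraries 7 to 12, although the study's methods name female mice. Pairs of libraries shared between 2 and 182 cell barcodes (median 23.5), at most 1.17% of the smaller library. No cell passed the keratin gate set for MC38 cells.

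Of the activating receptors, Fcgr1, the high-affinity IgG receptor, was highest in monocyte-like cells and lower in macrophage-like cells of the same library in 12 of 12 libraries. Its level in monocyte-like cells ran from 329 CPM in library 6 through a median of 584 CPM to 1050 CPM in library 4. In macrophage-like cells it ran from 283 CPM in library 6 through a median of 394 CPM to 526 CPM in library 4. The ranges of these classes overlap between libraries, but within a library the macrophage-like level was 0.480 to 0.860 of the monocyte-like level (median 0.614). Of the 6 genes other than Fcmr and Fcer2a, Fcgr1 alone was higher in monocyte-like than in macrophage-like cells in all 12 libraries, and Fcer1g and Fcgrt were lower in all 12. Of 5613 genes with a median of 20 CPM or more in either class, 16.1% were higher and 18.3% lower in monocyte-like cells in all 12. Neutrophil-like cells had a median of 123 CPM (22.3 to 209 CPM), below the macrophage-like level in 12 of 12 libraries and with no overlap of the ranges. Fcgr1, Fcgr2b and Fcer1g were lower in neutrophil-like than in macrophage-like cells in all 12 libraries and none of the 6 was higher in all 12, against 24.8% of 5825 genes that were lower and 10.2% that were higher. The remaining classes had medians of 26.4 CPM in dendritic-like, 22.0 in B-like, 18.6 in NK-like and 15.1 in T-like cells, with ranges that overlap each other.

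Fcgr3 encodes the low-affinity activating receptor of mouse macrophages, neutrophils and NK cells, and here it was near-equal over 3 myeloid classes. Its median was 683 CPM in macrophage-like cells (501 to 764 CPM), 681 CPM in monocyte-like cells (414 to 766 CPM) and 655 CPM in neutrophil-like cells (112 to 1076 CPM). The macrophage-like level was above the monocyte-like level in 5 of 12 libraries and above the neutrophil-like level in 6 of 12. These 3 classes were therefore not ordered beyond their spread over libraries. The lowest neutrophil-like value came from 5 UMIs in 28 cells of library 6 (112 CPM, exact Poisson 95% interval 36.2 to 260 CPM, counting error only). The next lowest, 339 CPM, came from 8 UMIs in 22 cells of library 5.

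NK-like cells are the lymphoid class in which Fcgr3 is best known, and their levels were 72.9, 44.6, 64.9 and 43.9 CPM in libraries 1, 5, 6 and 7. They rest on 5, 11, 2 and 5 UMIs. Each was above the T-like level of the same library, by 1.54 to 2.50 times. NK-like cells also held a median of 3.72% of the macrophage-like level of Lyz2 and 4.14% of that of Apoe, transcripts that NK cells lack, against 10.2% for Fcgr3 (6.31 to 12.8%) and 9.54% for Fcgr2b (2.27 to 19.4%). In T-like cells the same shares were 3.05% for Lyz2, 2.90% for Apoe and 3.58% for Fcgr3. The part of free RNA in the NK-like level was not tested.

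Fcgr4, the intermediate-affinity receptor for IgG2a and IgG2b, had the lowest level of the activating receptors in macrophage-like and monocyte-like cells by median. It ran from 150 CPM in library 8 through 243 CPM to 406 CPM in library 5 in macrophage-like cells, from 157 through 238 to 346 CPM in monocyte-like cells, and from 134 through 196 to 339 CPM in neutrophil-like cells. Macrophage-like cells were above monocyte-like cells in 6 of 12 libraries and above neutrophil-like cells in 9 of 12, so these classes were again not separated. Dendritic-like (8.39 CPM), T-like (6.57 CPM), NK-like (6.41 CPM) and B-like cells (5.51 CPM) all lay below the lowest of the 12 neutrophil-like values. Among the 4 IgG receptors, Fcgr4 had the fewest UMIs in macrophage-like cells of 11 of 12 libraries, and Fcgr3 had the most in 10 of 12. In neutrophil-like cells, Fcgr3 made up a median of 56.8% of the 4 (30.8 to 72.1%) and led in 11 of 12 libraries.

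**Figure D1:**
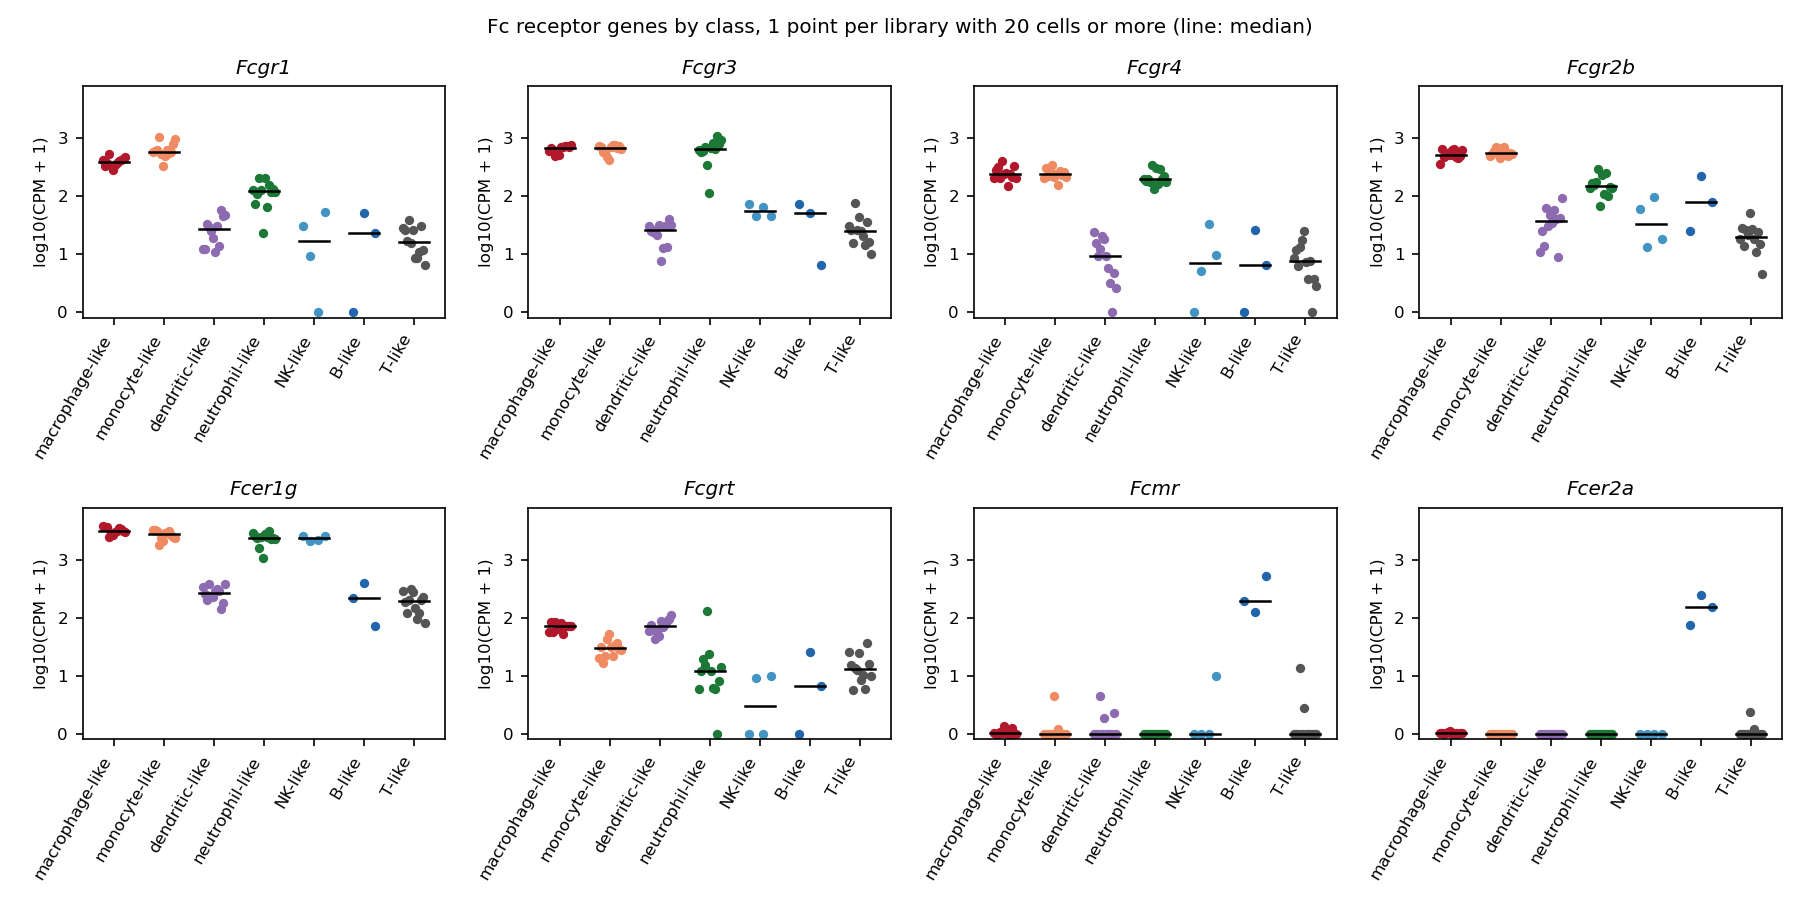
The level of each of the 8 genes, as log10(CPM + 1), is plotted by cell class with 1 point per library that had 20 cells or more and a line at the median. The activating receptors, Fcgr2b and Fcer1g sit high in macrophage-like, monocyte-like and neutrophil-like cells, Fcer1g also in the 4 NK-like points, while Fcmr and Fcer2a sit high in the 3 B-like points.

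The genes for these IgG receptors and their chain lie close together. Fcgr2b (GRCm38 chr1:170958617-170976547, minus strand), Fcgr4 (chr1:171018920-171029761, plus), Fcgr3 (chr1:171051174-171064935, minus) and Fcer1g (chr1:171229572-171234365, minus) fall within 276 kb, whereas Fcgr1 is on another chromosome (chr3:96282909-96293969, minus). The sequences before the starts of the activating receptor genes are shown because macrophage-like, monocyte-like and neutrophil-like cells were the 3 highest classes for each of these genes. They come from RefSeq for GRCm38.p6, read 5′ to 3′ on the gene's strand, and end at the annotated start or, for Fcgr4, just short of it where an exon begins. Capitals mark matches to GAGGAA (the core bound by PU.1, a factor of myeloid and B cells; TTCCTC on the other strand), TTCNNNGAA (a GAS-like motif, of the kind bound by STAT factors) or GAAA, any 2 bases and GAAA (an ISRE-like motif, of the kind bound by interferon regulatory factors), searched on both strands without overlap among the matches shown.
Fcgr1 (chr3:96293970-96294219, minus strand): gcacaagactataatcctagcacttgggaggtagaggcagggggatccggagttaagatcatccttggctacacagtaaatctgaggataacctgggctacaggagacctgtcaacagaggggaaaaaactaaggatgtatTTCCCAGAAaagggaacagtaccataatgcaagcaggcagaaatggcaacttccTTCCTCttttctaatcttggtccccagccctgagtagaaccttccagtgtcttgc
Fcgr4 (chr1:171018676-171018919, plus strand): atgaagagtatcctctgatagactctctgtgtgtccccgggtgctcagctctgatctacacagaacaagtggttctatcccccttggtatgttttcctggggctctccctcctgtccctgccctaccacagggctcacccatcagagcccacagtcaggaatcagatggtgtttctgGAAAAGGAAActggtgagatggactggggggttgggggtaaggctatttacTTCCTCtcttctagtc
Fcgr3 (chr1:171059404-171059626, minus strand, in an intron of a longer annotated transcript): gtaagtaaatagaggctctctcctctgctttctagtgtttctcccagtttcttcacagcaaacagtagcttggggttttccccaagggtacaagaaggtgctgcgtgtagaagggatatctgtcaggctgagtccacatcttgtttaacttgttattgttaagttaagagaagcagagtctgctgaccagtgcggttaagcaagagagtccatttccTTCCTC
The GAGGAA core lies 55 bases before the start of Fcgr1, 22 before that of Fcgr4 and 6 before that of Fcgr3, for which a second annotated start puts it at 15 bases. It was present in the 250 bases before 23.3% of 32851 annotated starts. Fcgr1 alone of these held the GAS-like motif, 109 bases before its start (7.02% of all starts), and Fcgr4 alone the ISRE-like motif, 73 bases before its start (2.98% of all starts). Of the other 5 genes, Fcmr held the core, 36 bases before its start, and none of the 3 sets of letters was found in the windows of Fcgr2b, Fcer1g, Fcgrt and Fcer2a. In the Fcmr window, 108 of the 250 bases, the core among them, lie in an annotated exon of Fcmr itself. In the Fcgr2b window, 203 of the 250 bases lie in exons of Fcgr2b or Gm38204. A match describes the letters and is no evidence of binding.

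The inhibitory receptor gene Fcgr2b was highest in monocyte-like and macrophage-like cells, and lower in neutrophil-like cells of the same library in 12 of 12 libraries. Its level in monocyte-like cells ran from 449 CPM in library 6 through a median of 549 CPM to 716 CPM in library 4, and in macrophage-like cells from 359 CPM in library 1 through 519 CPM to 649 CPM in library 2. The monocyte-like level was the higher in 9 of 12 libraries, with ranges that overlap widely. Neutrophil-like cells had 66.9 to 297 CPM (median 150 CPM), which was 30.3% of the macrophage-like level by median. This was closer to Fcgr1, at 29.9%, than to Fcgr3, at 99.0%, and Fcgr4, at 83.7%. For Lyz2, a transcript of macrophages and neutrophils alike, the value was 25.1%, and for Apoe 9.51%. Fcgr2b shares 1.36% of the 50-base windows of its 3' ends with Fcgr3, and an antisense gene, Gm38204, overlaps its exons on the other strand. Any effect of these on its counts was not tested.

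B-like cells are known for Fcgr2b as their main IgG receptor. They had 24.1, 224 and 77.1 CPM in libraries 1, 5 and 10, from 1, 9 and 14 UMIs. All 3 values were above the T-like level of the same library, by 1.43 to 11 times. Summed over all 299 B-like cells there were 56 UMIs of Fcgr2b (104 CPM, exact Poisson 95% interval 78.7 to 135 CPM), against 12 of Fcgr1 (22.3 CPM), 11 of Fcgr3 (20.5 CPM) and 3 of Fcgr4 (5.58 CPM). In T-like cells Fcgr2b came to 21.9 CPM.

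The common chain gene Fcer1g was the most abundant of the 8 by UMIs and the most widely shared. It reached a median of 3132 CPM in macrophage-like cells (2428 in library 4 to 3881 in library 1), 2783 CPM in monocyte-like cells (1774 to 3270) and 2412 CPM in neutrophil-like cells (1071 to 3082). Macrophage-like cells were the highest of these in 12 of 12 libraries against monocyte-like and in 12 of 12 against neutrophil-like cells, although the ranges overlap between libraries. The 4 NK-like levels were 2550, 2121, 2206 and 2535 CPM in libraries 1, 5, 6 and 7, which lie within the range of the neutrophil-like values. They were 6.83 to 17.2 times the T-like level and held 65.7 to 83.9% of the macrophage-like level, so NK-like cells had Fcer1g at a myeloid level with little of any IgG receptor. For each UMI of Fcgr1, Fcgr3 and Fcgr4 together there were 24.5 UMIs of Fcer1g in NK-like cells (22.7 to 37.4), against medians of 2.53 in macrophage-like, 2.46 in neutrophil-like and 1.92 in monocyte-like cells.

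Small gated populations added to this picture for Fcer1g. The 32 cells gated as basophil or mast cell-like held 275 UMIs of Fcer1g (2561 CPM, exact Poisson 95% interval 2267 to 2882 CPM) and 9 of Fcgr3, with none of Fcgr1 or Fcgr4. They also held 225 UMIs of Fcer1a (2095 CPM) and 52 of Ms4a2 (484 CPM), the other chains of the high-affinity IgE receptor, whose medians were 0 CPM in the 7 main classes. The 149 gamma delta T-like cells, pooled, had 362 CPM of Fcer1g (314 to 415 CPM) against 153 CPM (146 to 160 CPM) in the 3016 CD8 T-like cells, while their Fcgr1, Fcgr3, Fcgr4 and Fcgr2b came to 1, 8, 0 and 2 UMIs. These intervals cover counting error only, and the pooled difference was not seen within a library: only libraries 6 and 8 had 20 gamma delta T-like cells, at 257 and 86.5 CPM, against 273 and 76.4 CPM in CD8 T-like cells of the same libraries.

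**Figure D2:**
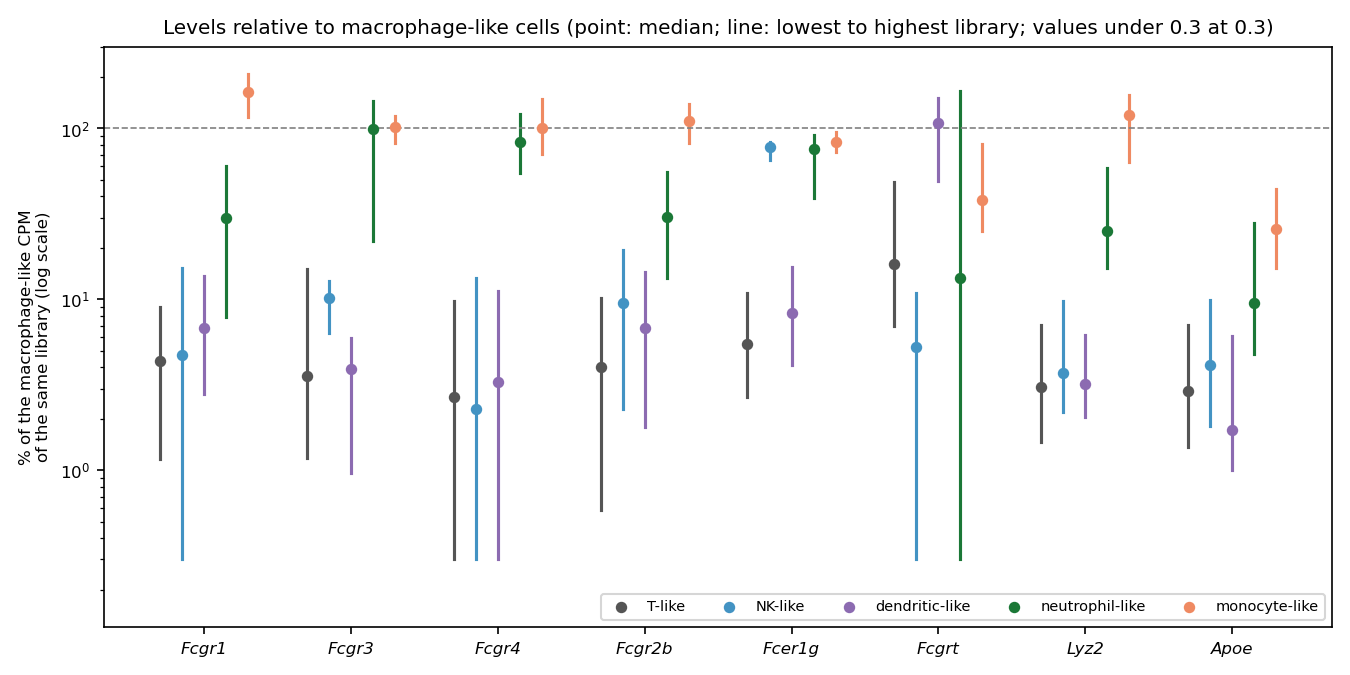
For 6 of the genes and for Lyz2 and Apoe, the level of each class is drawn as a percent of the macrophage-like level of the same library on a log axis, with a point at the median and a line from the lowest to the highest library. T-like cells lie between 2.68 and 5.50% for the IgG receptors and Fcer1g and near 3% for Lyz2 and Apoe, whereas NK-like cells reach 77.8% for Fcer1g and dendritic-like cells 108% for Fcgrt.

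For the IgG receptors, the T-like values were taken as the background. This was an assumption, and expression of these receptors by T-like cells was not tested. By median T-like cells held 4.33% of the macrophage-like level of Fcgr1, 3.58% of Fcgr3, 2.68% of Fcgr4, 4.0% of Fcgr2b and 5.50% of Fcer1g. For Fcgrt they held 16.2% (6.97 to 48.8%), and the part of free RNA in that level was not tested. After each cell was thinned to 500 UMIs, 1.31% of T-like cells had a UMI of Fcgr3 (6.56% unthinned, median 2498.5 UMIs), against 25.0% of macrophage-like cells (84.6% unthinned, median 5232 UMIs) and 29.8% of neutrophil-like cells (61.0% unthinned, median 1372 UMIs). Dendritic-like cells, at 1.08%, were no higher than the T-like share, and by CPM they were above T-like cells in 5 of 12 libraries. Fcgr3 in the class as pooled was thus not above the T-like level, which need not be the background of dendritic-like cells. Of the macrophage-like level, they held 1.73% for Apoe and 3.21% for Lyz2, against 2.90 and 3.05% in T-like cells. The part of free RNA in the dendritic-like level was not tested. For Fcgr1 and Fcgr4 the thinned shares in dendritic-like cells were 1.05 and 0.787%, against 0.719 and 0.527% in T-like cells.

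Within dendritic-like cells the receptors were unevenly placed. The 55 cells gated on Cd209a, a marker of monocyte-related and type 2 dendritic cells, held 118 UMIs of Fcgr2b (288 CPM, exact Poisson 95% interval 238 to 345 CPM), 58 of Fcgr1 (141 CPM), 41 of Fcgr3 (100.0 CPM, 71.8 to 136 CPM), 14 of Fcgr4 (34.2 CPM, 18.7 to 57.3 CPM) and 539 of Fcer1g (1315 CPM). Their Fcgr3 was above the pooled T-like value of 23.4 CPM (21.3 to 25.7 CPM), by intervals that cover counting error only. The 673 cells gated on Xcr1 or Clec9a, markers of type 1 dendritic cells, had 25.9 CPM of Fcgr2b, 26.4 CPM of Fcgr1, 24.3 CPM of Fcgr3 and 122 CPM of Fcer1g. The 144 cells gated on Siglech, a marker of plasmacytoid dendritic cells, had 1104 CPM of Fcer1g (1011 to 1204 CPM) but 64.3 CPM of Fcgr2b, 23.6 CPM of Fcgr1 and 12.9 CPM of Fcgr3. The 789 cells gated on Ccr7 and Fscn1, which mark mature migratory dendritic cells, had 218 CPM of Fcer1g, 24.9 CPM of Fcgr2b and 13.8 CPM of Fcgr3. These are pooled values, because no library had 20 cells of the Cd209a gate and 2 had 20 of the Siglech gate.

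The neonatal receptor gene Fcgrt (chr7:45092990-45103851, minus strand) had a distribution unlike that of the other IgG-binding receptors. Its median was 70.5 CPM in macrophage-like cells (51.6 to 83.9 CPM) and 70.1 CPM in dendritic-like cells (41.2 to 108 CPM), and macrophage-like cells were the higher in 4 of 12 libraries. Monocyte-like cells had 28.5 CPM (15.6 to 51.4 CPM), below macrophage-like cells in 12 of 12 libraries. By contrast, Fcgr1 was higher in monocyte-like than macrophage-like cells in those libraries. Neutrophil-like (11 CPM), T-like (11.9 CPM), B-like (5.51 CPM) and NK-like cells (4.06 CPM) were not separated from each other. The highest neutrophil-like value, 127 CPM in library 5, came from 3 UMIs (interval 26.2 to 372 CPM).

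Among dendritic-like cells, Fcgrt was higher in the Xcr1 or Clec9a gate than in the Ccr7 and Fscn1 gate in 9 of 9 libraries with 20 cells of each. Over those libraries the medians were 78.5 and 17.9 CPM. In library 3 the Ccr7 and Fscn1 gate, with 24 cells, had no UMI of Fcgrt, and over the other 8 libraries the ratio ran from 2.22 to 15.2 (median 4.95). Of 5634 genes with a median of 20 CPM or more in either gate, 20.3% were higher and 18.2% lower in the Xcr1 or Clec9a gate in all 9, so such a difference was common among genes. The Ccr7 and Fscn1 gate thus lay near the T-like level of 11.9 CPM. The pooled value was 212 CPM in the 55 cells of the Cd209a gate (170 to 262 CPM) and 105 CPM in the 144 cells of the Siglech gate (77.7 to 139 CPM). Its partner B2m, also the light chain of MHC class I, was high in every class, from a median of 1151 CPM in B-like to 3879 CPM in macrophage-like cells.

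Fcmr and Fcer2a were B-like genes in these tumors. Fcmr (chr1:130865669-130880791, plus strand) came to 193, 124 and 518 CPM in libraries 1, 5 and 10, from 8, 5 and 94 UMIs. Fcer2a (chr8:3681737-3694175, minus strand) came to 72.4, 249 and 149 CPM in the same libraries, from 3, 10 and 27 UMIs. Library 10 held 140 of the 299 B-like cells and the most UMIs of Fcmr of these libraries, while the higher level of Fcer2a was in library 5, and the intervals of Fcer2a in these libraries overlap (119 to 458 CPM in library 5, 98.0 to 216 CPM in library 10).

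Over all B-like cells, 199 UMIs of Fcmr gave 370 CPM (321 to 425 CPM) and 70 UMIs of Fcer2a gave 130 CPM (101 to 165 CPM); the UMIs outside libraries 1, 5 and 10 came from the 9 libraries with under 20 B-like cells. With a median of 1280 UMIs per B-like cell, 39.5% had a UMI of Fcmr and 16.7% a UMI of Fcer2a, and after thinning to 500 UMIs the shares were 18 and 7.03%. In the other classes these genes were close to absent. The 90756 macrophage-like cells held 40 UMIs of Fcmr and 20 of Fcer2a, and T-like cells 5 and 4. Neutrophil-like cells held none of either, which allows up to 0.522 CPM (3 UMIs over the class), and monocyte-like and dendritic-like cells held no Fcer2a, which allows up to 0.130 and 0.329 CPM. Of the windows of the 3' ends of Fcer2a, 2.73% recur in other genes.

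Taking the class with the highest median as the leading class, macrophage-like cells led for 4 of the 8 genes (Fcgr3, Fcgr4, Fcer1g and Fcgrt), monocyte-like cells for 2 (Fcgr1 and Fcgr2b) and B-like cells for 2 (Fcmr and Fcer2a). Among 7764 genes with a median of 20 CPM or more in a class, a filter that all 8 passed, macrophage-like cells led for 13.5%, monocyte-like cells for 8.04% and B-like cells for 21.6%. At the settings reported here, none of the 8 was led by dendritic-like, neutrophil-like, NK-like or T-like cells, which led for 11.4, 14.1, 18.3 and 12.9% of those genes. The lead of Fcgr3, Fcgr4, Fcgrt and Fcgr2b rests on differences smaller than the spread over libraries. Without library 4, monocyte-like cells led for Fcgr3 (691 CPM) and dendritic-like cells for Fcgrt (72.5 CPM), and without library 6 this held too and monocyte-like cells also led for Fcgr4 (244 CPM).

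The balance of activating and inhibitory receptors was followed as the share of Fcgr1, Fcgr3 and Fcgr4 in the UMIs of these genes and Fcgr2b. It was 65.4 to 77.4% in macrophage-like cells (median 70.0%), 67.9 to 77.1% in monocyte-like cells (median 73.8%) and 73.1 to 93.4% in neutrophil-like cells (median 85.7%). Neutrophil-like cells had the higher share against both other classes in 12 of 12 libraries, by a median of 12.6 percentage points over monocyte-like cells (3.56 to 22.1) and of 15.0 points over macrophage-like cells (2.82 to 25.5). Monocyte-like cells were above macrophage-like cells in 8 of 12 libraries, and the macrophage-like minus monocyte-like difference had a median of -0.958 points. B-like cells had the lowest pooled share, 31.7% of 82 UMIs (exact Clopper-Pearson 95% interval 21.9 to 42.9%). The dendritic-like share (42.9 to 89.5%) rested on 914 UMIs in all. T-like cells, where these UMIs were assumed to be background, had a share of 68.4% of 1372 UMIs (65.9 to 70.9%). This was close to that of macrophage-like cells, 70.5% when pooled.

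**Figure D3:**
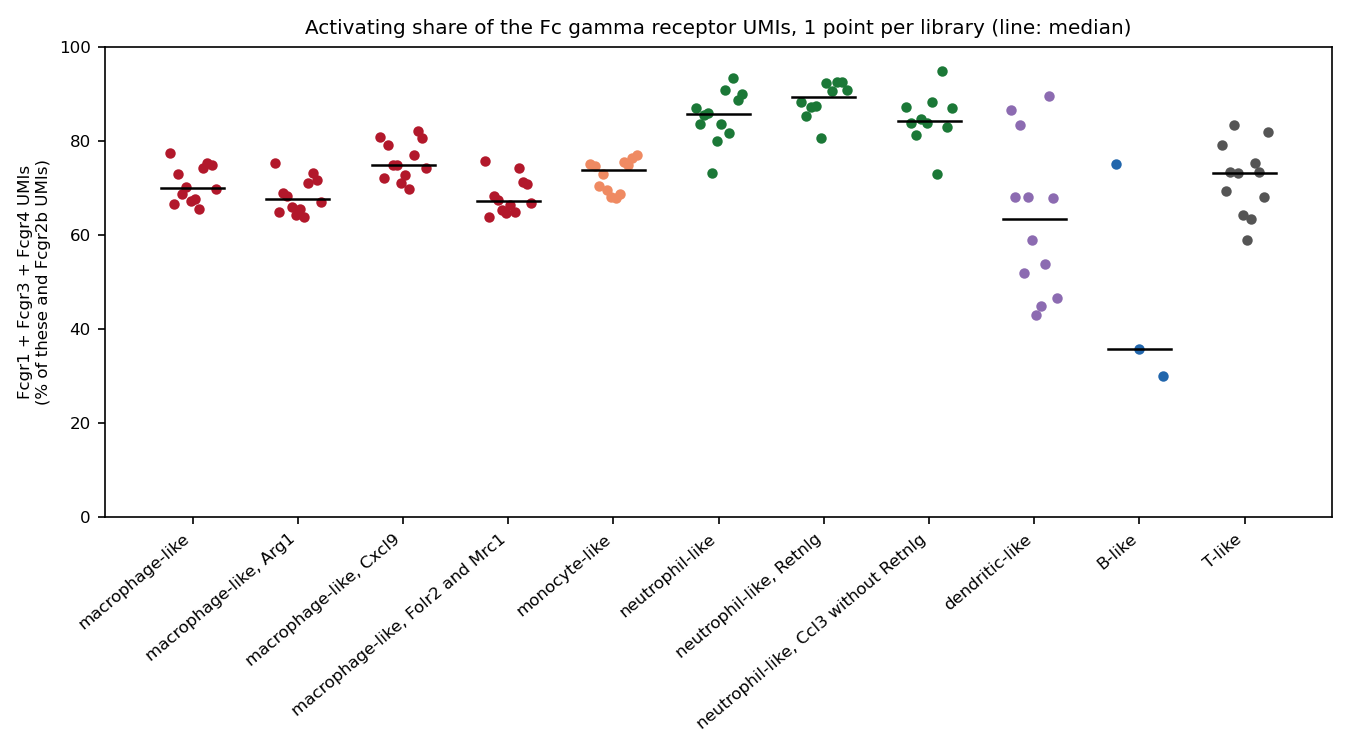
The percent of Fcgr1, Fcgr3 and Fcgr4 in the UMIs of these and Fcgr2b is plotted by class and subgate with 1 point per library and a line at the median. Neutrophil-like points (median 85.7%) sit above macrophage-like (70.0%) and monocyte-like points (73.8%), and the macrophage-like Cxcl9 gate (74.9%) sits above the Arg1 gate (67.6%).

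Macrophage-like cells were further gated by Arg1, the arginase of suppressive tumor macrophages, by Cxcl9, an interferon-induced chemokine, or by Folr2 and Mrc1, markers of resident-type macrophages. The Arg1 gate left out cells with Cxcl9 and the Cxcl9 gate cells with Arg1, so these gates share no cell. The Folr2 and Mrc1 gate set no limit on either gene, so its cells can also be in the Arg1 or Cxcl9 gate. Fcgr4 was higher in the Cxcl9 gate than in the Arg1 gate in 12 of 12 libraries, at medians of 316 and 210 CPM (ratio 1.36 to 1.83, median 1.49). Fcgr2b was lower in the Cxcl9 gate in 12 of 12 libraries, at 435 against 597 CPM (ratio 0.588 to 0.797, median 0.705). Fcgr3 was also lower there in 12 of 12, at 572 against 707 CPM (ratio 0.634 to 0.893, median 0.815). Thus the activating receptors did not move together between these gates.

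Fcgr1 was higher in the Cxcl9 gate in 10 of 12 libraries (median ratio 1.19), Fcer1g in 11 of 12 (1.11) and Fcgrt in 8 of 12 (1.04). Of 5343 genes at 20 CPM or more in macrophage-like cells, 10.8% were higher and 15.4% lower in the Cxcl9 gate in all 12 libraries, against 1 higher (Fcgr4) and 2 lower (Fcgr3 and Fcgr2b) of the 6 Fc receptor genes at that level. The activating share was higher in the Cxcl9 gate in 12 of 12 libraries, by 5.45 to 10.1 points (median 7.20). Pooled over libraries, cells of the gates had medians of 4787 UMIs in the Cxcl9 gate, 6789 in the Arg1 gate and 9126 in the Folr2 and Mrc1 gate. Libraries 5 and 6, with medians of 4174 and 2420 UMIs per macrophage-like cell, gave 2723 and 3563 of the 10550 Cxcl9-gate cells. The pooled medians therefore do not give the depth difference within a library, where the ratios were taken. The part of depth in these ratios was not tested.

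The Folr2 and Mrc1 gate stood out by Fcgrt. At a median of 118 CPM (80.7 to 160 CPM) it was above the Arg1 gate, at 64.6 CPM, in 12 of 12 libraries (ratio 1.37 to 2.62, median 1.79), and above the Cxcl9 gate in 12 of 12 (median ratio 1.57). Of the 5343 genes, 11.6% were higher and 8.89% lower in this gate than in the Arg1 gate in all 12 libraries, against 1 higher (Fcgrt) and none lower of the 6. The other receptors were close to their Arg1 gate levels, with median ratios of 1.02 for Fcgr1, 0.992 for Fcgr3, 1.08 for Fcgr4 and 1.01 for Fcgr2b, each higher in 5 to 7 of 12 libraries. Fcer1g was higher in 11 of 12, by a median ratio of 1.05. Against the Cxcl9 gate, this gate also had more Fcgr2b (median ratio 1.46, higher in 12 of 12) and Fcgr3 (1.19, higher in 12 of 12) and less Fcgr4 (0.679, higher in 0 of 12). Of the 5343 genes, 17.5% were higher and 13.4% lower than in the Cxcl9 gate in all 12 libraries. Cells that passed both gates of a ratio count on both sides of it, and their part in these ratios was not tested.

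**Figure D4:**
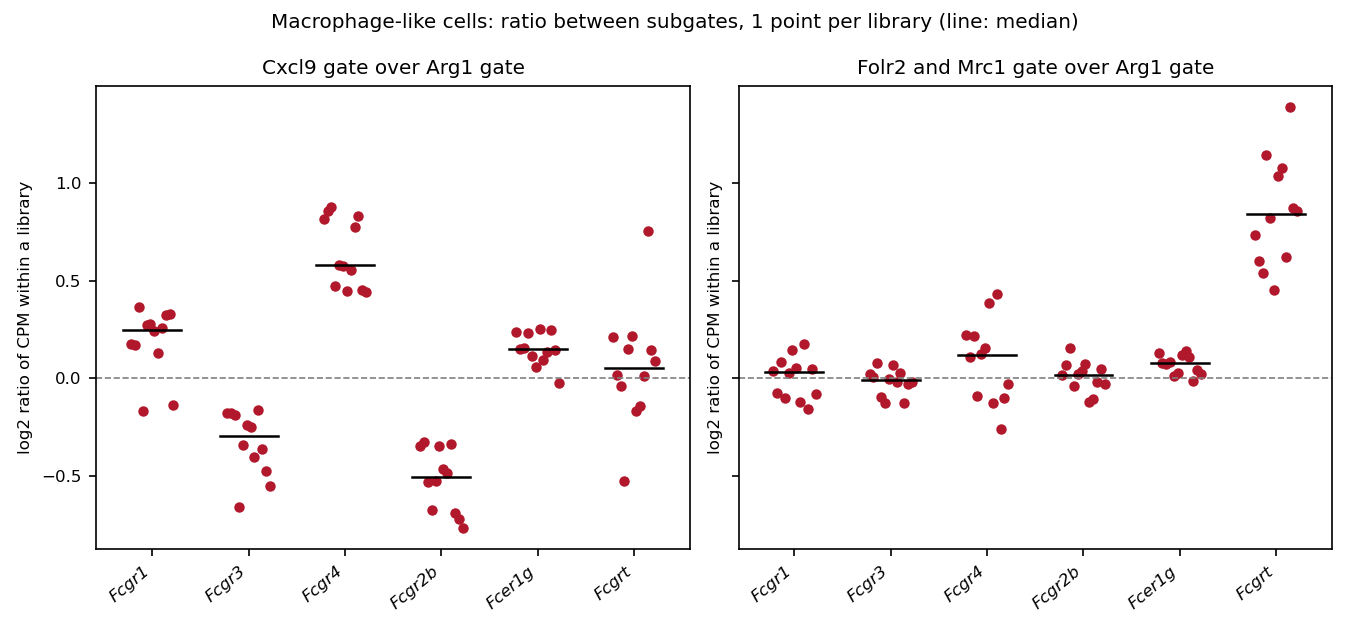
The log2 ratio of CPM between macrophage-like subgates within a library is plotted for 6 genes, with 1 point per library and a line at the median. All 12 points of Fcgr4 lie above 0 and all 12 of Fcgr3 and Fcgr2b below 0 for the Cxcl9 gate over the Arg1 gate, and all 12 of Fcgrt lie above 0 for the Folr2 and Mrc1 gate over the Arg1 gate.

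Macrophage-like levels varied between libraries. The highest library exceeded the lowest by 1.52 times for Fcgr3, 1.60 for Fcer1g, 1.63 for Fcgrt, 1.81 for Fcgr2b, 1.86 for Fcgr1 and 2.70 for Fcgr4. Library 4 had the highest macrophage-like Fcgr1 (526 CPM) and Fcgrt (83.9 CPM) and the lowest Fcgr3 (501 CPM) and Fcer1g (2428 CPM). Library 5, with 17.8% of its macrophage-like cells in the Cxcl9 gate, had the highest Fcgr4 (406 CPM), while library 9, with 18.5% in that gate, had 242 CPM. The relation of this share to Fcgr4 over the 12 libraries was not tested. Macrophage-like Fcgr3 did not overlap between libraries with and without Y-linked transcripts, at 501 to 676 CPM in libraries 1 to 6 and 690 to 764 CPM in libraries 7 to 12. The levels of Fcgr1, Fcgr4, Fcgr2b, Fcer1g and Fcgrt did overlap between these sets of libraries. Of 5343 genes, 0.318% were higher in each of libraries 7 to 12 than in each of libraries 1 to 6, and 0.131% were lower. The split was chosen after seeing the data. Median UMIs per macrophage-like cell were 2420 to 9888 in libraries 1 to 6 and 5850 to 20682 in libraries 7 to 12. The part of depth in the Fcgr3 difference was not tested. Libraries were assigned to no treatment group, so this split was not set against treatment.

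Monocyte-like cells gated on Ly6c2, Vcan, Chil3 and Ccr2, which mark inflammatory monocytes, made up 4577 of the class. The 139 cells gated on Ace, Treml4, Eno3 and Spn, which mark patrolling monocytes, had less Fcgr1 (105 CPM, exact Poisson 95% interval 81.1 to 133 CPM, against 678 CPM) and less Fcgr2b (203 against 624 CPM) when pooled. Their Fcgr3 was 188 CPM (155 to 225 CPM) against 709 CPM. Their Fcgr4 was 256 CPM (218 to 299 CPM) against 235 CPM (228 to 241 CPM). In the 3 libraries with 20 patrolling-gate cells, Fcgr1 was 121 to 134 CPM, below the lowest of the 12 Ly6c2-gate values (333 CPM), Fcgr3 was 135 to 253 CPM, below the lowest of those values (420 CPM), and Fcgr4 was 212 to 402 CPM, within reach of the Ly6c2-gate range of 156 to 338 CPM. Of the 6 Fc receptor genes at 20 CPM or more in either gate, Fcgr1, Fcgr3 and Fcgr2b lay below all Ly6c2-gate values. Fcer1g (3456 to 3679 CPM) lay above them. Of 5394 genes, 7.92% lay below and 7.16% above in the same way. Pooled over all 139 cells, however, Fcer1g was 2424 CPM, below the 2795 CPM of all 4836 monocyte-like cells pooled. Within libraries 1, 2 and 7, Fcgr4 was 256, 212 and 402 CPM in the patrolling gate. In the Ly6c2 gate of these libraries it was 204, 303 and 240 CPM.

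In neutrophil-like cells, a UMI of Retnlg, a marker of neutrophils as they circulate, was set against a UMI of Ccl3 without Retnlg. Over 10 libraries with 20 cells of each, the Ccl3 gate had more Fcgr4 in 9 (median ratio 1.23), more Fcgr2b in 7 (1.37) and more Fcgr1 in 6 (1.32). Fcgr3 was higher in the Ccl3 gate in 4 (0.940), Fcer1g in 8 (1.05) and Fcgrt in 1. Some values rest on few UMIs, as for Fcgr1 in the Ccl3 gate, with 3 UMIs in library 2 and 2 in library 3. The share of all genes that differed between these gates was not measured. The activating share was higher in the Retnlg gate in 8 of 10 libraries, at medians of 89.4 and 84.3%, with differences from -3.35 to 17.7 points.

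Other genes of the pathway, listed by role, placed these receptors among their partners. Of 10 other Fc receptors, Fcrls, a scavenger-type Fc receptor-like gene of macrophages, had 277 CPM in macrophage-like cells and 11.6 CPM or less elsewhere by median. Fcrla, an intracellular Fc receptor-like protein of B cells, had 182 CPM in B-like and 33.8 CPM in dendritic-like cells, and Fcrl1 had 48.3 CPM in B-like cells. The cytosolic antibody receptor gene Trim21 was at 14.3 CPM or less in all 7 classes. Fcrlb, Fcrl5, Pigr and Fcamr were below 3 CPM by median in every class. Only Fcrls, led by macrophage-like cells, and Fcrla and Fcrl1, led by B-like cells, had a median of 20 CPM or more in a class; as for the 8 genes, the shares of all genes at that level led by these classes were 13.5 and 21.6%.

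Of 15 signalling partners and inhibitors, neutrophil-like cells led for 4, namely Syk (307 CPM against 91.0 CPM in macrophage-like cells), the SRC family kinase Fgr (167 CPM), the phosphatase gene Ptpn6 (219 CPM) and Tyrobp (4266 CPM), the gene of another adaptor with an activation motif. Monocyte-like cells led for 3, among them the kinase gene Lyn (318 CPM) and Plcg2. B-like cells led for 3, namely Inpp5d (274 CPM), Btk (60.6 CPM) and Cr2 (66.1 CPM), macrophage-like cells for 3, dendritic-like cells for Dok1, and T-like cells for Cd247 (90.8 CPM). Over the 7764 genes the shares were 14.1% for neutrophil-like, 8.04% for monocyte-like, 21.6% for B-like and 13.5% for macrophage-like cells, so the 3 of 15 in B-like cells are near that background. Tyrobp in NK-like cells was 88.5% of the macrophage-like level (84.7 to 103%), much as Fcer1g.

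Among 9 genes listed as pairing with the Fcer1g protein, the C-type lectin receptor genes Clec4e (1374 CPM) and Clec4d (1327 CPM) were highest in neutrophil-like cells, where macrophage-like cells had 64.9 and 61.8 CPM. Clec4n was near-equal in macrophage-like (380 CPM) and neutrophil-like cells (367 CPM). Ncr1, which was used in the NK gate, had 319 CPM in NK-like cells. The list also held Pirb, which encodes an inhibitory receptor, and Osm, which encodes the cytokine oncostatin M; neither is a receptor that signals through Fcer1g. Of the 7 that reached a median of 20 CPM in a class, neutrophil-like cells led for 5, Pirb and Osm among them, against 14.1% of the 7764 genes at that level.

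The list of 10 immunoglobulin genes held 8 heavy chain constant regions, the light chain gene Igkc and the joining chain gene Jchain. Among the heavy chains are those of IgG, IgM and IgE, which the receptors bind. Of the 10 genes, 6 reached a median of 20 CPM in a class. B-like cells led for all 6, against 21.6% of the 7764 genes at that level. Over the 3 libraries with 20 B-like cells they had medians of 5333 CPM for Igkc, 1510 CPM for Ighm and 647 CPM for Ighd, while Ighg1, Ighg2b and Ighg2c stayed at 16.5 to 49.8 CPM. Pooled over all 299 B-like cells, Igkc came to 37059 CPM and Ighm to 20816 CPM, of which library 4 held 68.9 and 80.2% of the UMIs. The 6 plasma-like cells, all of library 4, had 234352 CPM of Igkc and 250175 CPM of Ighm. The IgE gene Ighe, whose product is the ligand of CD23, had a median of 0 CPM in all 7 classes.

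Genes were ranked by likeness to each receptor, as Pearson correlation of log2(CPM + 1) over 67 class-by-library values, which share libraries and depth. This compared 10751 genes, and the Fc receptor genes followed here were given no rank. The nearest to Fcgr1 were Ms4a6d (0.93), Clec4a2 (0.92) and Msr1 (0.91). Those nearest to Fcgr3 were Sat1 (0.94), Prdx5 (0.94) and Ninj1 (0.93), and to Fcgr4, Tlr2 (0.94), Adam17 (0.93) and Tgm2 (0.93). Fcgr2b was nearest to Lyz2 (0.92), Tgfbi (0.92) and Lgmn (0.91). Of the ranked genes, Fcer1g was nearest to Tyrobp (0.92), Vegfa (0.89) and Tlr2 (0.88). The unranked Fcgr3 was at 0.91 for Fcer1g, above Vegfa and Tlr2. For Fcgrt the values were lower, at 0.81 for Gltp and 0.80 for Tnfrsf11a and Dnajb14. For the B-like genes, the order rests on the 3 B-like values, since these genes were at or near 0 in the other classes. Pax5, a defining transcription factor of B cells, was at 0.99 for Fcer2a and 0.90 for Fcmr. The others were 2010007H06Rik (0.99) and Cr2 (0.98) for Fcer2a, and Gm31243 (0.91) and Vpreb3 (0.90) for Fcmr.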

How the data were processed

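Single-cell libraries were prepared from CD45+ cells with the 10x Genomics 3' v3 kit. The authors deposited raw UMI counts of all 12 libraries as 1 matrix, which its header credits to Cell Ranger 3.0.2; the submitters' processing notes list Cell Ranger 2.1.1 and mm10, and the annotation release, the settings and any sampling down of reads are not stated there. No normalization was applied, and libraries were joined but not summed.

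The limits were those of the study's methods, above 200 and below 5000 genes per cell, with no more than 10% of UMIs from mitochondrial genes. A cell entered a class with 2 to 5 UMIs, from 2 or 3 genes, of that class and few of the others: T (Cd3d, Cd3e, Cd3g, Trac), B (among them Cd79a, Cd79b, Ms4a1), NK (Ncr1, Klrb1c, Klre1), macrophage (C1qa, C1qb, C1qc with a UMI of a further set, among them Csf1r, Adgre1 and Mertk), monocyte (Ly6c2, Vcan, Chil3, Ccr2, or Ace, Treml4, Eno3, Spn), neutrophil (Csf3r, Cxcr2, Retnlg, S100a8, S100a9) and dendritic (Xcr1 or Clec9a, Cd209a, Ccr7 and Fscn1, or Siglech). Not every gene of the gates and lists is reported here. Every class but macrophage allowed at most 3 UMIs of the C1q genes, and 186 cells that passed the gates of 2 classes were left out. No doublet caller was run; the exclusions, and an alternative without the 10% deepest cells of each class and library, stand in for it.

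The 8 genes, the gates and the gene lists were chosen with earlier results of these data known. Named genes were the 8 in every class, listed genes by role, and the 3 ranked as most alike in pattern to each, where the 8 themselves held no rank. No test was made, since no label gives a library number its group and none was inferred: n is the number of libraries, and "higher in 12 of 12 libraries" is a description. Intervals are exact Poisson (levels) or Clopper-Pearson (shares) at 95% and, like the limit of 3 UMIs for a count of 0, cover counting error only. Thinning to 500 UMIs was computed as the expected share over all draws. Alternatives changed 1 choice at a time; a value is called unmoved if it stayed within 1 SD of its library values. The gates were checked on simulated data. Those cells were drawn from the mean levels of the cells each gate had kept, without doublets. The check therefore does not give the share of real cells placed in a wrong class. Gene positions come from GENCODE M21 (GRCm38), where 30934 of 31053 identifiers matched. Tables were computed in Python 3.11.15 with pandas 2.3.3, scipy 1.17.1 and numpy 2.4.6, and figures drawn with matplotlib 3.10.9.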

Additional observations from a re-analysis of the deposited data

How the results depend on the processing

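The level of each gene in its leading class and the activating share in macrophage-like, monocyte-like, neutrophil-like and dendritic-like cells were recomputed under 11 settings, which gave 130 values; 124 moved by less than 1 SD of the library values. The 6 that moved further were as follows. Fcmr in B-like cells, 193 CPM as reported, came to 475 CPM with gates of 2 times the UMIs, 546 CPM with no UMI of other classes allowed and 518 CPM in libraries without Y-linked transcripts, where library 10 alone remained. Fcer2a in B-like cells, 149 CPM as reported, came to 263 CPM without the 10% deepest cells. Fcgr3 in macrophage-like cells, 683 CPM as reported, came to 571 CPM in libraries with Y-linked transcripts, and Fcgrt, 70.5 CPM as reported, to 58.7 CPM after subtraction of the T-like level. The cause was not tested, except that the last setting subtracts by construction. At a mitochondrial limit of 5% no library held 20 B-like cells, so Fcmr and Fcer2a had no value. Which class led also changed. For Fcgr3, monocyte-like cells led at that limit (696 CPM). Neutrophil-like cells led for it with no UMI of other classes allowed (715 CPM). They also led in libraries with (589 CPM) and without Y-linked transcripts (811 CPM). Macrophage-like cells kept the lead for Fcgr3 only after subtraction of the T-like level. Dendritic-like cells led for Fcgrt in most settings, among them gates of 2 times the UMIs (72.5 CPM). Macrophage-like cells kept Fcgrt by the mean over cells, without the 10% deepest cells, with Y-linked transcripts and after the subtraction. Monocyte-like cells led for Fcgr4 by the mean over cells (261 CPM). This held with gates of 2 times the UMIs, without the 10% deepest cells, without library 6, without Y-linked transcripts and after the subtraction. For Fcgr2b, macrophage-like cells led in libraries without Y-linked transcripts (557 CPM). Fcgr1 and Fcer1g kept their leading class in every setting. The settings split by Y-linked transcripts and the subtraction were chosen after seeing the data. With 82 IgG receptor UMIs in B-like and 74 in NK-like cells, smaller differences between these genes there were not detectable. No paired analysis was possible because no label gives a library number its group or replicate. This concerns the treatment groups, since most classes and gates were compared within each library. The patrolling gate was instead set against the range of the Ly6c2 gate over libraries, and some small gates were given as pooled values only.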
